A study of Homo sapiens with 15 samples.

Results

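The 134 genes described here lie on the short arm of chromosome 8 between its outer end and THAP1. They were chosen by position (chromosome 8, ending before THAP1) and by a mean of at least 0 log2 RPM over the 15 libraries, where RPM is a gene's reads scaled to a common library size. The table listed 519 genes on this stretch, of which 147 reached that mean and 13 were then left out by name, among 35805 genes listed in all. All 134 also passed the filter for testing, as did 16787 genes of the table. In GRCh38 the first of them, ZNF596, starts at base 232137 and the last, SMIM19, ends at base 42555193, and THAP1 spans 42836674 to 42843325 on the minus strand. The mean of the level chose the members, so the values at that threshold are a description: FAM167A (0.175) and TDRP (0.254) lay just inside it, and GS1-72M22.1 (-0.041) and CTD-2541M15.4 (-0.156) just outside.

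Cas9 cuts both strands of DNA at the site that its guide RNA matches. Repair usually leaves a small insertion or deletion, but the piece of the chromosome arm beyond a cut, away from the centromere, can also be lost, and genes on a lost piece then have fewer copies in that cell. A change in copy number tends to move neighbouring genes by a similar factor whatever they do, whereas loss of a transcription factor moves the genes that it controls wherever they lie. THAP1 is a zinc-finger transcription factor mutated in a form of dystonia. HEK-293T is a human embryonic kidney line with an abnormal karyotype.

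RNA-seq was made from 5 groups of 3 libraries, which are biological replicates. In sg1-THAP1 and sg2-THAP1, HEK-293T cells received a lentiviral vector with Cas9 and a guide against THAP1. In sg1-Control they received Cas9 with a guide to an intron of FOXP1 (chromosome 3), in sg2-Control Cas9 with another control guide, and the untransduced group was labelled as Wild-type. The study describes THAP1 ablation in reporter cells with GFP at PSMB5, which also carry an exogenous PSMB5 that keeps them alive, and GFP-dim cells were sorted as a population, not as a clone. Whether control cells were sorted is not given in the sources used here, so the sort and the guide cannot be told apart. Whether the untransduced and control cells carry the same reporter and exogenous PSMB5 is not given either. A difference in the starting cells thus cannot be told apart from the guide or Cas9. The 6 libraries of both control guides together are called sgControl, and those of both THAP1 guides sgTHAP1.

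The recovered depth was 30400149 to 56638461 reads a library, and 90.8% to 94.5% of them lay in listed genes. The HEK-293T markers IRS4, VIM, KRT8, KRT18 and ZIC2 were present (IRS4 at 7.28 to 8.74 log2 RPM), and PAX2 was low (0.13 to 1.55). Of the blood markers PTPRC was at or near 0 reads, SPI1 reached -2.08, CD33 -1.69 and CD14 -0.09. Of the markers of other epithelial lines KRT5 and SFTPB were at or near 0 reads, while KRT7 reached -1.26 and MUC1 1.0. THAP1 itself stood at 5.56, 5.54 and 5.48 log2 RPM in the sg1-THAP1 libraries, with 6.06, 6.18 and 6.12 for sg2-THAP1, against 3.25 to 3.57 in sgControl and 3.46, 3.36 and 3.45 in untransduced cells. THAP1 rose by 2.08 with sg1-THAP1 and by 2.67 with sg2-THAP1 on the log2 scale. The cause of this rise was not tested. The amount of RNA does not tell whether the protein was lost, and the loss of the protein was not measured here.

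The short-arm genes stood lower in every sgTHAP1 library than in every other library. For each library the shift is the median, over the 134 genes, of the log2 value minus the gene's mean in sgControl, minus the same median over 12952 genes of the other chromosomes with a mean of at least 0. It was -0.171, -0.165 and -0.177 in the 3 sg1-THAP1 libraries and -0.151, -0.180 and -0.148 in the 3 sg2-THAP1 libraries. The sgControl libraries held -0.013 to 0.011 and the untransduced libraries -0.013, -0.021 and 0.010. The sgTHAP1 values did not overlap with the other 9. The mean shift was -0.171 ± 0.006 (SD, n = 3) with sg1-THAP1 and -0.160 ± 0.018 (SD, n = 3) with sg2-THAP1, which correspond to 88.8% and 89.5% of the sgControl level. The SD covers the spread between libraries only, not the spread between genes. As a share of all reads in listed genes, the members took 0.3749% to 0.3779% with sg1-THAP1 and 0.3972% to 0.3984% with sg2-THAP1, against 0.4439% to 0.4509% in sgControl and 0.4339% to 0.4381% in untransduced cells. No test was made on the median, because genes are not replicates. In bulk RNA, fewer cells that express a gene and less RNA per cell cannot be told apart.

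**Figure D1:**
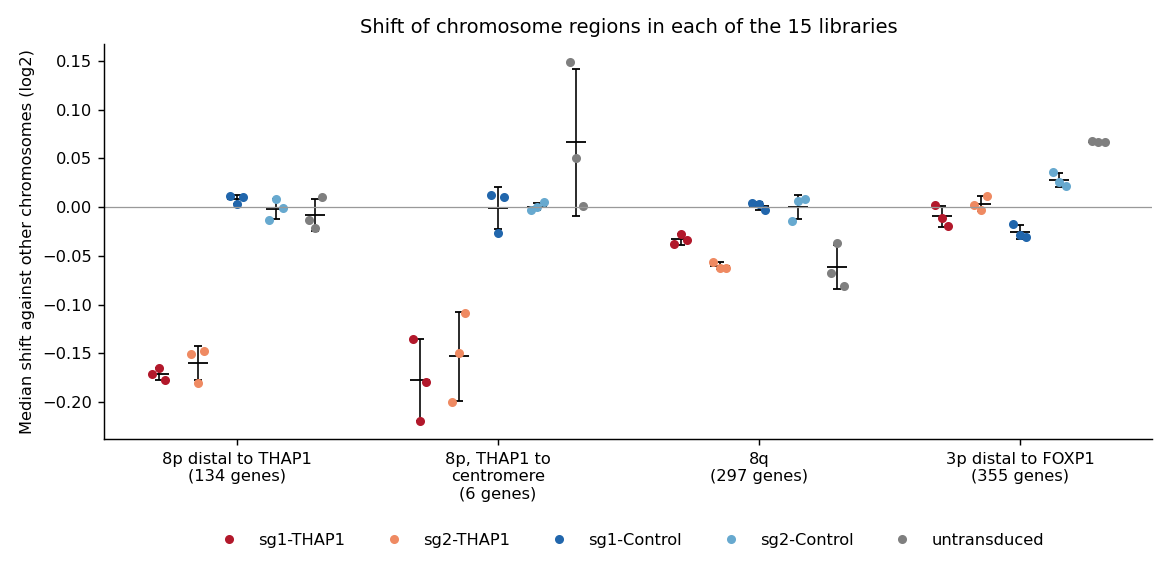
Median shift of a chromosome region against the other chromosomes (log2, y axis) in each of 15 libraries, for 4 regions (x axis). Points are libraries, horizontal bars are group means and error bars are SD (n = 3). On the distal short arm the 6 sgTHAP1 libraries lie between -0.180 and -0.148 and the other 9 between -0.021 and 0.011.

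The rest of chromosome 8 differed on its 2 sides. The 297 genes of the long arm had a mean shift of -0.033 ± 0.006 with sg1-THAP1 and -0.060 ± 0.003 with sg2-THAP1, against 0.001 ± 0.004 with sg1-Control, 0.000 ± 0.012 with sg2-Control and -0.062 ± 0.022 in untransduced cells (SD, n = 3 each). No sgTHAP1 library had a lower long arm (lowest -0.062) than the lowest untransduced library (-0.081). On the centromere side of THAP1 the short arm holds 6 genes that pass the same mean, and these had a shift of -0.178 ± 0.042 with sg1-THAP1 and -0.153 ± 0.046 with sg2-THAP1, against -0.001 ± 0.022 with sg1-Control, 0.001 ± 0.004 with sg2-Control and 0.067 ± 0.075 in untransduced cells. These 6 genes give a coarse median, and RP11-598P20.5 overlaps HOOK3 and FNTA, so that their reads may be shared. HOOK3, which links cargo to dynein, stood at 5.58, 5.48 and 5.49 log2 RPM for sg1-THAP1, with 5.55, 5.68 and 5.59 for sg2-THAP1, against 5.80 to 5.88 in sgControl. FNTA, the shared alpha subunit of protein farnesyltransferase, changed by -0.21 on the log2 scale with sg1-THAP1 (limma adjusted p = 2.9e-06) and by -0.17 with sg2-THAP1 (limma adjusted p = 0.00012). HGSNAT, a lysosomal acetyltransferase, changed by -0.20 with sg1-THAP1 (limma adjusted p = 0.00034) and had 0.04 with sg2-THAP1 (limma adjusted p = 0.5).

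Regions of other chromosomes moved less. In the fold changes of the limma fit, the shift of the 134 genes was -0.159 for sg1-THAP1 against sgControl, and the shifts of 22 other chromosomes ran from -0.097 (chromosome 18) to 0.074 (chromosome 19). For sg2-THAP1 against sgControl it was -0.149, and the others ran from -0.129 (chromosome 18) to 0.090 (chromosome 17). Chromosome 18, which no guide of the study targets, thus came close to the short arm with sg2-THAP1. In the other 3 comparisons the same genes had shifts of -0.010 (sg1-THAP1 against sg2-THAP1), 0.007 (sgControl against untransduced cells) and 0.006 (sg1-Control against sg2-Control), all inside the range of the other chromosomes.

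The arm beyond a control cut gave a measure of the same kind. The 355 genes of 3p distal to FOXP1 had a shift of -0.025 ± 0.007 with sg1-Control, whose guide targets FOXP1, against 0.028 ± 0.007 with sg2-Control and 0.067 ± 0.001 in untransduced cells (SD, n = 3 each). This arm was lower with the guide that cuts it than with the other control guide, by far less than 8p in sgTHAP1. The zero of this scale is the mean of both control guides, so their values lie on opposite sides of it. In the limma fit the arm had a shift of -0.052 for sg1-Control against sg2-Control. The 22 chromosomes other than 8 ran from -0.053 (chromosome 15) to 0.048 (chromosome 7) in that comparison. The difference on 3p thus lay inside their range.

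The shift was also computed with other properties of the genes taken into account. Of the members, 120 (89.6%) had a GC value, with a median GC content of 47.2% against 48.0% on the other chromosomes, and the median mean level was 4.14 against 4.77 log2 RPM. Adjusted for GC content, length and level, the shift was -0.145 with sg1-THAP1 and -0.166 with sg2-THAP1 against sgControl, beside adjusted shifts of -0.067 to 0.050 and of -0.082 to 0.069 over the other chromosomes. Before adjustment the same 120 genes had -0.156 with sg1-THAP1 and -0.137 with sg2-THAP1. For sgControl against untransduced cells they had 0.009 before and 0.148 after adjustment, the last outside the -0.071 to 0.063 of the other chromosomes. Against untransduced cells the adjusted shift was -0.072 with sg1-THAP1, inside the range of the other chromosomes (lowest -0.079), and -0.106 with sg2-THAP1, below it (lowest -0.053). Before adjustment these shifts were -0.150 with sg1-THAP1 and -0.155 with sg2-THAP1 on the 120 members with a GC value, and -0.196 and -0.184 on all 134. Split by mean level into low, middle and high members, the shift was -0.157, -0.145 and -0.161 with sg1-THAP1, and -0.166, -0.178 and -0.129 with sg2-THAP1. For sgControl against untransduced cells the same split gave 0.072, 0.149 and -0.024, and between the THAP1 guides 0.005, 0.118 and -0.048. The middle members thus also moved without a THAP1 guide, in the other direction.

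Gene by gene, more of the short-arm genes were called lower, and fewer higher, than genes at large. A gene was called at a limma adjusted p under 0.05 (Benjamini-Hochberg over 16787 genes). With sg1-THAP1 against sgControl 82 of 134 were lower (61.2%, beside 39.3% of all genes tested) and 9 higher (6.72%, beside 20.1%). With sg2-THAP1 against sgControl 75 were lower (56.0%, beside 30.6%) and 12 higher (8.96%, beside 25.6%). The median log2 fold change was -0.251 over the members and -0.092 over the other chromosomes with sg1-THAP1, and -0.170 and -0.020 with sg2-THAP1. From the lower to the upper quartile the members ran from -0.479 to -0.072 with sg1-THAP1 and from -0.394 to -0.027 with sg2-THAP1, beside -0.329 to 0.122 and -0.232 to 0.181 on the other chromosomes. The median of all genes tested was itself -0.105 with sg1-THAP1 and -0.026 with sg2-THAP1, and 0.059 and 0.038 with every library centred on its median gene. After that centring 58 members were lower (beside 23.9% of all genes tested) and 22 higher (beside 35.5%) with sg1-THAP1, and 55 lower (beside 24.3%) and 19 higher (beside 32.3%) with sg2-THAP1.

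**Figure D2:**
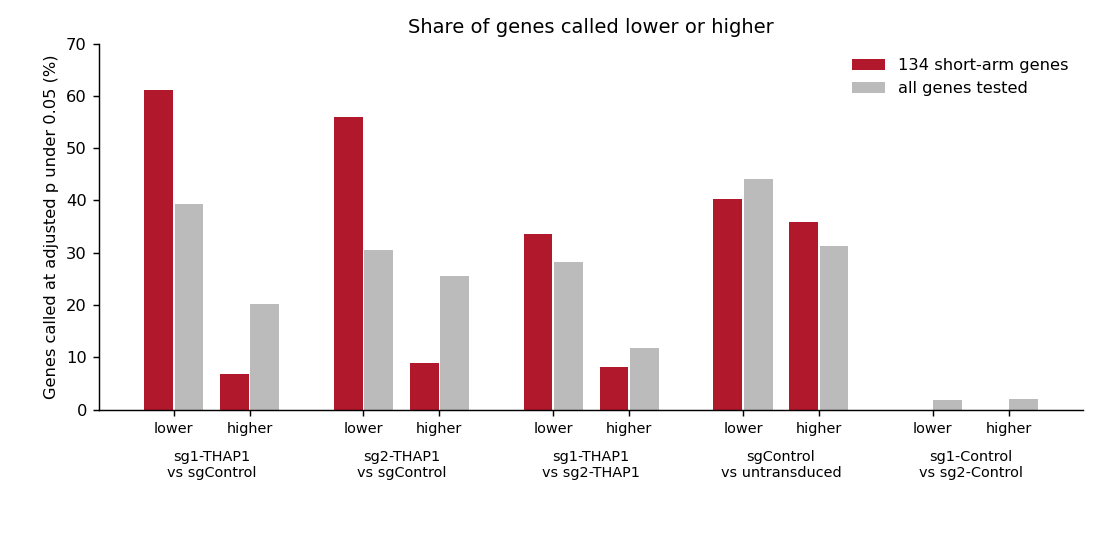
Share of genes called lower or higher at a limma adjusted p under 0.05 (y axis, percent) in 5 comparisons (x axis), for the 134 short-arm genes (red) and all 16787 genes tested (grey). With sg1-THAP1 against sgControl the lower share is 61.2% beside 39.3%, and with sg2-THAP1 56.0% beside 30.6%.

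Few members passed a stricter rule of an adjusted p under 0.001 and more than 2-fold. Genes that differ between untransduced and control-guide cells, which the study set aside, were kept here, among them MYOM2 (-1.74 for sgControl against untransduced cells) and FAM167A (-1.53). With sg1-THAP1 these were 8 lower (beside 2.97% of all genes tested) and 0 higher (beside 0.423%), and 0 were higher more than 2-fold at limma's unadjusted p under 0.05 or by the strict rule in voom on recovered reads. The 8 were ZNF596, MYOM2, FAM167A, DLC1, RP11-582J16.5, ANK1, PLAT and PSD3, the last named after its values were seen. With sg2-THAP1 they were 4 lower, ZNF596, MYOM2, DOCK5 and TEX15 (beside 2.03%), and 1 higher, CLU (beside 0.667%). By the same rule voom on recovered reads called 5 lower with sg1-THAP1, fewer than limma, and 4 lower and 1 higher with sg2-THAP1. In 42 members (31.3%) all 6 sgTHAP1 libraries lay below the other 9, beside 12.9% of all genes tested. In 4 members (2.99%, beside 7.12%) they lay above them, namely CLU, TTI2, LSM1 and R3HCC1, the last named after its values were seen.

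Because both comparisons above share the sgControl libraries, each THAP1 guide was also set against its own control guide. For sg1-THAP1 against sg1-Control the shift was -0.171, with 82 members lower (61.2%, beside 36.8% of all genes tested) and 8 higher (5.97%, beside 18.8%). For sg2-THAP1 against sg2-Control it was -0.161, with 65 lower (48.5%, beside 27.8%) and 9 higher (6.72%, beside 23.4%). The lower lists, which share no library, had 55 members in common, 67.1% of the sg1 list and 84.6% of the sg2 list. For all genes tested the overlap was 57.9% and 76.8%. Both lists used the same estimate of each gene's spread from all 15 libraries, so they are not fully independent. Lists that hold a larger share of the genes also overlap more by themselves, and the sg1 list held 61.2% of members beside 36.8% of all genes. The overlap was not tested.

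Along the arm, members in order of their start were split into 5 blocks of 26 or 27 genes. Against sgControl the block shifts, from the outer end to THAP1, were -0.114, -0.146, -0.310, -0.053 and -0.241 with sg1-THAP1. With sg2-THAP1 they were -0.129, -0.138, -0.173, -0.092 and -0.205. Every block was below 0 with either guide, and neither series ran steadily from 1 end to the other. Single blocks also moved without a THAP1 guide. For sgControl against untransduced cells the same blocks had -0.199, 0.026, 0.239, 0.022 and -0.074. The block from ELP3 to BRF2 moved least with both, and its sgTHAP1 libraries (-0.162 to -0.050) overlapped with the others (-0.086 to 0.032). In the block from PDLIM2 to PBK the untransduced libraries were also low (-0.205 ± 0.117, SD, n = 3), beside -0.294 ± 0.045 with sg1-THAP1 and -0.159 ± 0.024 with sg2-THAP1. Across the 134 members Spearman's rank correlation of fold change with start was 0.01 with sg1-THAP1 and 0.02 with sg2-THAP1, given as a description since the genes share libraries.

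With 10 blocks of 13 or 14 genes the shifts were less even. The second from the outer end, ERI1 to FAM86B1, had 0.000 with sg1-THAP1 and -0.113 with sg2-THAP1, and the eighth, UBXN8 to BRF2, had -0.088 and -0.016. The last, ADAM9 to SMIM19 next to THAP1, had -0.296 with sg1-THAP1 and -0.305 with sg2-THAP1. Computed library by library, the mean shift of this last block was -0.291 ± 0.047 with sg1-THAP1 and -0.215 ± 0.123 with sg2-THAP1 (SD between libraries). The sg2-THAP1 libraries thus differed widely among themselves. In this block the sgTHAP1 libraries ran from -0.341 to -0.073, and the other libraries from -0.04 to 0.06. Such a separation was not particular to it. From ZNF596 to MFHAS1 the highest sgTHAP1 library had -0.174 and the lowest other -0.045. From INTS10 to AC037459.4 these were -0.136 and -0.024, and from RAB11FIP1 to TM2D2 -0.103 and -0.054. In the remaining blocks the sgTHAP1 libraries overlapped with the others. For sgControl against untransduced cells the 10 blocks ran from -0.229 to 0.464, a wider range than with either THAP1 guide. A difference between blocks was not tested.

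**Figure D3:**
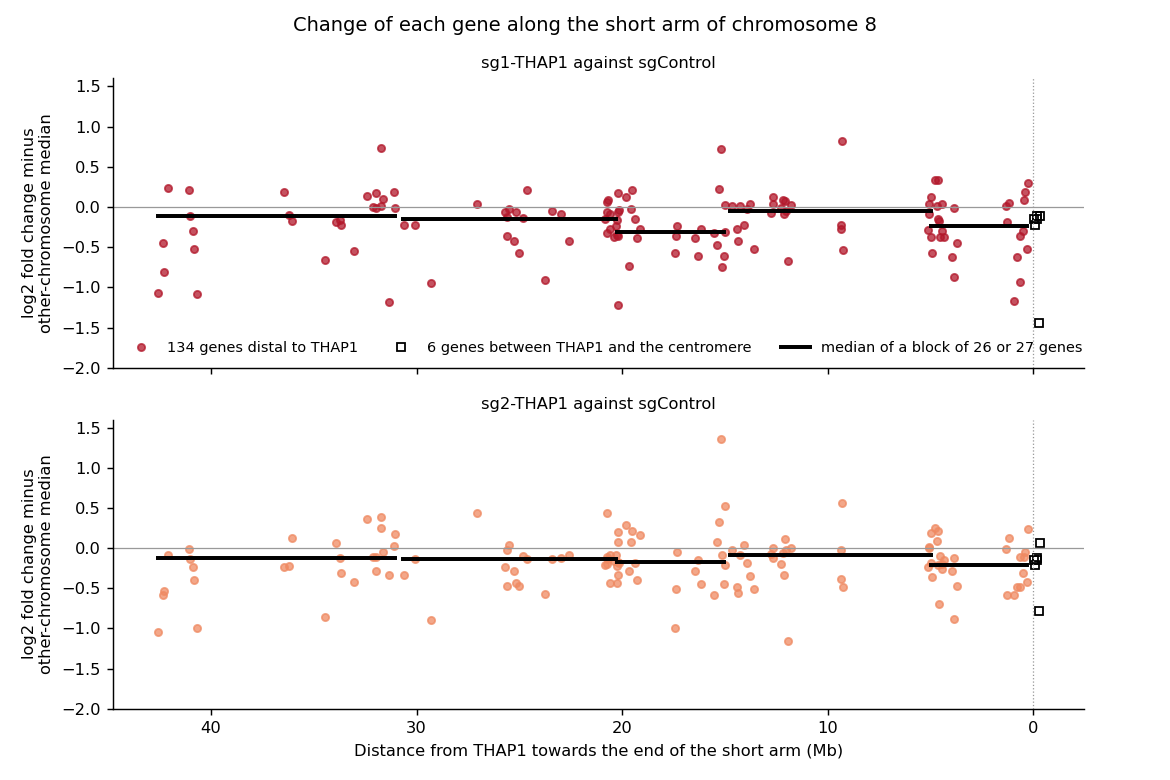
log2 fold change of each gene minus the median of the other chromosomes (y axis) against its distance from THAP1 (x axis, Mb, outer end of the short arm at the left), for sg1-THAP1 (upper) and sg2-THAP1 (lower) against sgControl. Points are 134 genes, open squares 6 genes on the centromere side and black bars the medians of 5 blocks, which lie between -0.310 and -0.053 with sg1-THAP1 and between -0.205 and -0.092 with sg2-THAP1.

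The 6 members nearest to THAP1 did not move together. In what follows a gene's change is its log2 fold change against sgControl ± SE with limma's adjusted p. PLAT, the tissue plasminogen activator, 0.63 Mb away, changed by -1.02 ± 0.14 (adjusted p = 4.1e-08) with sg1-THAP1 and -0.51 ± 0.14 (adjusted p = 0.0021) with sg2-THAP1, and without sg2-THAP1 replicate 2 the change with that guide was -0.34 (adjusted p = 0.063). IKBKB, the kinase that frees NF-kappaB from its inhibitor, stood at 4.82, 4.93 and 4.90 log2 RPM with sg1-THAP1 and 4.97, 4.97 and 4.90 with sg2-THAP1, against 5.19 to 5.34 in sgControl (median 5.29) and 5.68, 5.70 and 5.83 in untransduced cells. All 6 sgTHAP1 libraries of IKBKB were below the other 9, with changes of -0.39 ± 0.04 (adjusted p = 1.4e-10) with sg1-THAP1 and -0.33 ± 0.04 (adjusted p = 1.2e-08) with sg2-THAP1. SLC20A2, a phosphate importer, changed by -0.61 ± 0.06 (adjusted p = 1.2e-12) with sg1-THAP1 and -0.44 ± 0.06 (adjusted p = 6.8e-09) with sg2-THAP1. Against untransduced cells the SLC20A2 call with sg2-THAP1 was lost (-0.11, adjusted p = 0.13). VDAC3, a channel of the mitochondrial outer membrane, rose by 0.10 ± 0.03 (adjusted p = 0.0016) with sg1-THAP1 and had -0.07 ± 0.03 (adjusted p = 0.018) with sg2-THAP1, a call lost without sg2-THAP1 replicate 1 (-0.05), sg2-THAP1 replicate 3 (-0.07) or sg1-Control replicate 3 (-0.06). POLB, the polymerase of base excision repair, had -0.00 ± 0.05 (adjusted p = 0.96) with sg1-THAP1 and -0.13 ± 0.05 (adjusted p = 0.037) with sg2-THAP1, the last lost without any of 5 libraries (-0.14 to -0.10). SMIM19, the member closest to THAP1, had 0.21 ± 0.07 (adjusted p = 0.0084) with sg1-THAP1 and 0.22 ± 0.07 (adjusted p = 0.0058) with sg2-THAP1. It overlaps SLC20A2 on the other strand, so shared reads are uncertain, and its call was lost with sg1-THAP1 when replicate 1 of that guide was left out (0.18), and with sg2-THAP1 when its replicate 2 was (0.18). With sg2-Control alone as reference both SMIM19 calls were lost (0.13 with sg1-THAP1 and 0.14 with sg2-THAP1).

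The members sort into 7 lists by role, which hold 85 of them. Of 13 genes of the cytoskeleton, adhesion and matrix, 11 were lower and 1 higher with sg1-THAP1, and 10 lower and 1 higher with sg2-THAP1. All genes tested had 39.3% lower and 20.1% higher with sg1-THAP1, and 30.6% lower and 25.6% higher with sg2-THAP1, and these shares are the background of every list that follows. The lists are parts of the arm. Its 134 members had 61.2% lower and 6.72% higher with sg1-THAP1, and 56.0% and 8.96% with sg2-THAP1. A list near or below those lower shares is no lower than the arm itself. The median log2 fold change of the cytoskeleton, adhesion and matrix list was -0.424 with sg1-THAP1 and -0.448 with sg2-THAP1, beside -0.092 and -0.020 on the other chromosomes. ADAM9, a membrane-bound metalloprotease that sheds cell surface proteins, stood at 5.66, 5.59 and 5.70 log2 RPM with sg1-THAP1 and 5.74, 5.69 and 5.66 with sg2-THAP1, against 6.14 to 6.24 in sgControl (median 6.19) and 6.39, 6.39 and 6.45 in untransduced cells. Its sgTHAP1 libraries were all below the other 9, and it fell by 0.54 with sg1-THAP1 (adjusted p = 9.4e-18) and by 0.49 with sg2-THAP1 (adjusted p = 1.8e-16). PLEKHA2, a lipid-binding adaptor, fell to 51.3% of the sgControl level with sg1-THAP1 (adjusted p = 2.8e-08) and to 53.5% with sg2-THAP1 (adjusted p = 1.2e-07), again with no overlap. CLU, a secreted chaperone, was the exception in this list. CLU stood at 5.74, 5.89 and 5.70 log2 RPM with sg1-THAP1 and 6.50, 6.44 and 6.55 with sg2-THAP1, against 4.96 to 5.30 in sgControl (median 5.18) and 3.34, 3.39 and 3.34 in untransduced cells. Both guides had higher values than every other library, with changes of 0.63 ± 0.05 (adjusted p = 1e-14) with sg1-THAP1 and 1.34 ± 0.05 (adjusted p = 6.4e-26) with sg2-THAP1. The CLU level in sgControl was itself 1.80 above untransduced cells (adjusted p = 3e-31), so the gene differed among all conditions.

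Of 11 genes of growth factor and phosphatase signalling, 8 were lower and 1 higher with sg1-THAP1, and 5 lower and 2 higher with sg2-THAP1 (lower beside 39.3% and 30.6% of all genes tested, higher beside 20.1% and 25.6%, medians -0.388 and -0.112). DLC1, a GTPase-activating protein, stood at 3.42, 3.20 and 3.17 log2 RPM with sg1-THAP1 and 3.26, 3.42 and 3.47 with sg2-THAP1, against 4.21 to 4.40 in sgControl (median 4.29) and 4.32, 4.06 and 4.12 in untransduced cells. Its level in the 6 sgTHAP1 libraries was below all others, and DLC1 changed by -1.04 ± 0.07 (adjusted p = 4.2e-17) with sg1-THAP1 and -0.92 ± 0.07 (adjusted p = 2.5e-15) with sg2-THAP1. PPP2R2A, a regulatory subunit of protein phosphatase 2A, fell by 0.48 with sg1-THAP1 (adjusted p = 3.6e-17) and by 0.30 with sg2-THAP1 (adjusted p = 4.4e-11). Against untransduced cells, where PPP2R2A stood at 5.88, 5.90 and 5.89 log2 RPM, its direction turned to 0.22 with sg1-THAP1 and 0.40 with sg2-THAP1. EIF4EBP1, the repressor of cap-dependent translation that mTOR inactivates, rose by 0.25 ± 0.03 (adjusted p = 2.2e-08) with sg1-THAP1 and 0.23 ± 0.03 (adjusted p = 1.6e-07) with sg2-THAP1. In untransduced cells EIF4EBP1 was higher than in all Cas9 cells (7.26, 7.21 and 7.17 log2 RPM), and the log2 change against them was -1.02 with sg1-THAP1 and -1.04 with sg2-THAP1. RHOBTB2, an atypical GTPase, had 0.03 ± 0.08 (adjusted p = 0.73) with sg1-THAP1 and 0.27 ± 0.08 (adjusted p = 0.0024) with sg2-THAP1.

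The list of chromatin and transcription factors held 10 members, of which 5 were lower with sg1-THAP1 (beside 39.3% of all genes tested) and 6 with sg2-THAP1 (beside 30.6%), and 0 were called higher with either by limma (beside 20.1% and 25.6%). These counts include BAG4, a chaperone regulator and not such a factor, which was lower with both guides (-0.24 and -0.23). In the higher direction 0 of this list also reached an unadjusted p under 0.05 in limma or an adjusted p under 0.05 in voom. KAT6A, a histone acetyltransferase 0.78 Mb from THAP1, stood at 5.88, 5.91 and 5.93 log2 RPM with sg1-THAP1 and 6.09, 6.20 and 6.08 with sg2-THAP1, against 6.59 to 6.66 in sgControl (median 6.63) and 5.89, 5.97 and 5.87 in untransduced cells. All sgTHAP1 libraries of KAT6A were below all sgControl libraries, with changes of -0.72 ± 0.03 (adjusted p = 2.7e-22) with sg1-THAP1 and -0.50 ± 0.03 (adjusted p = 5e-17) with sg2-THAP1, yet the untransduced libraries overlapped with sg1-THAP1. Against untransduced cells KAT6A had -0.00 with sg1-THAP1 and 0.21 with sg2-THAP1. ZNF703, a corepressor and the member with the highest mean (7.93), fell by 0.38 with sg1-THAP1 (adjusted p = 1.1e-14) and by 0.25 with sg2-THAP1 (adjusted p = 2.4e-09). Against untransduced cells it had 0.25 with sg1-THAP1 and 0.39 with sg2-THAP1.

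DNA replication, repair and mitosis held 12 members, with 6 lower and 1 higher with sg1-THAP1, and 8 lower and 2 higher with sg2-THAP1 (lower beside 39.3% and 30.6% of all genes tested, higher beside 20.1% and 25.6%, medians -0.142 and -0.129). TNKS, a poly-ADP-ribose polymerase that acts at telomeres, stood at 4.68, 4.61 and 4.63 log2 RPM with sg1-THAP1 and 4.86, 4.74 and 4.92 with sg2-THAP1, against 5.23 to 5.35 in sgControl (median 5.27) and 5.78, 5.84 and 5.86 in untransduced cells. Its sgTHAP1 libraries lay below all others, with changes of -0.64 ± 0.04 (adjusted p = 8.4e-17) with sg1-THAP1 and -0.44 ± 0.04 (adjusted p = 9.6e-12) with sg2-THAP1. GINS4, a subunit of the replicative helicase, changed by -0.28 ± 0.03 (adjusted p = 1.7e-09) with sg1-THAP1 and -0.60 ± 0.03 (adjusted p = 1.8e-19) with sg2-THAP1, also with no overlap. PBK, a mitotic kinase, had -0.07 ± 0.04 (adjusted p = 0.19) with sg1-THAP1 and rose by 0.50 ± 0.04 (adjusted p = 1.4e-13) with sg2-THAP1. TTI2, part of the complex that stabilizes the ATM and mTOR kinases, rose by 0.73 ± 0.07 (adjusted p = 2.6e-11) with sg1-THAP1 and 0.54 ± 0.07 (adjusted p = 4.3e-08) with sg2-THAP1. The span of TTI2 holds MAK16 on the other strand, and reads that they share cannot be assigned where the use of strand in counting is not given. PCM1, a scaffold of centriolar satellites, fell by 0.23 with sg1-THAP1 (adjusted p = 1.3e-08) and by 0.12 with sg2-THAP1 (adjusted p = 0.00072), while against untransduced cells it had 0.07 with sg1-THAP1 and 0.18 with sg2-THAP1. Both PCM1 calls against sgControl were lost with median centring (-0.07 with sg1-THAP1 and -0.06 with sg2-THAP1).

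In transcription and RNA processing 6 of 11 members were lower with either guide, and 1 was higher with sg1-THAP1 and 2 with sg2-THAP1 (lower beside 39.3% and 30.6% of all genes tested, higher beside 20.1% and 25.6%, medians -0.183 and -0.105). XPO7, a nuclear export receptor, stood at 6.43, 6.46 and 6.45 log2 RPM with sg1-THAP1 and 6.45, 6.45 and 6.46 with sg2-THAP1, against 6.63 to 6.75 in sgControl (median 6.68) and 6.67, 6.69 and 6.69 in untransduced cells. The sgTHAP1 libraries of XPO7 spanned 6.43 to 6.46, below the other 9, and it changed by -0.24 ± 0.03 (adjusted p = 2.3e-09) with sg1-THAP1 and -0.23 ± 0.03 (adjusted p = 5.5e-09) with sg2-THAP1. MAK16, a factor for the large ribosomal subunit in yeast, changed by -0.31 ± 0.04 (adjusted p = 1.7e-08) with sg1-THAP1 and -0.40 ± 0.04 (adjusted p = 3.3e-11) with sg2-THAP1, while against untransduced cells it had 0.09 with sg1-THAP1 and 0.00 with sg2-THAP1. LSM1, of the ring that directs mRNA decapping, rose by 0.25 ± 0.04 (adjusted p = 8.4e-07) with sg1-THAP1 and 0.19 ± 0.04 (adjusted p = 8.7e-05) with sg2-THAP1 and was above the other 9 libraries in all 6, although LSM1 overlaps BAG4 on the other strand.

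Membrane traffic and organelles had 14 members, of which 9 were lower with sg1-THAP1 and 0 higher, and 8 lower and 1 higher with sg2-THAP1 (lower beside 39.3% and 30.6% of all genes tested, higher beside 20.1% and 25.6%, medians -0.176 and -0.100). In the higher direction with sg1-THAP1, 0 also reached an unadjusted p under 0.05 in limma or an adjusted p under 0.05 in voom. RAB11FIP1, a Rab11 effector in endosome recycling, changed by -0.66 ± 0.04 (adjusted p = 7.5e-18) with sg1-THAP1 and -0.38 ± 0.04 (adjusted p = 1.1e-10) with sg2-THAP1. ATP6V1B2, a subunit of the proton pump that acidifies lysosomes, changed by -0.52 ± 0.04 (adjusted p = 1.3e-16) with sg1-THAP1 and -0.11 ± 0.04 (adjusted p = 0.006) with sg2-THAP1. Against untransduced cells RAB11FIP1 and ATP6V1B2 had 0.22 and 0.23 with sg2-THAP1. With sg1-THAP1 RAB11FIP1 had -0.06 against them (adjusted p = 0.24). The ATP6V1B2 call with sg2-THAP1 against sgControl was lost with median centring (-0.05). TUSC3, of the oligosaccharyltransferase, was the higher one, with -0.05 ± 0.04 (adjusted p = 0.26) for sg1-THAP1 and 0.42 ± 0.04 (adjusted p = 6.6e-12) for sg2-THAP1.

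Mitochondria, metabolism and lipids had 14 members, with 6 lower and 1 higher with sg1-THAP1, and 6 lower and 2 higher with sg2-THAP1. The lower share with sg1-THAP1 was close to the 39.3% of all genes tested, beside 30.6% with sg2-THAP1 and, for higher calls, 20.1% and 25.6%. The medians, -0.104 and -0.095, were the nearest of the 7 lists to the other chromosomes with sg1-THAP1. SLC39A14, an importer of zinc and manganese, stood at 6.10, 6.04 and 6.08 log2 RPM with sg1-THAP1 and 6.35, 6.34 and 6.39 with sg2-THAP1, against 6.47 to 6.58 in sgControl (median 6.55) and 6.43, 6.42 and 6.43 in untransduced cells. It fell by 0.47 with sg1-THAP1 (adjusted p = 2.4e-17) and by 0.18 with sg2-THAP1 (adjusted p = 2.8e-06), with no overlap. Against untransduced cells the SLC39A14 call with sg2-THAP1 was lost (-0.07, adjusted p = 0.076). DDHD2, a phospholipase, changed by -0.46 ± 0.04 (adjusted p = 5.6e-14) with sg1-THAP1 and -0.12 ± 0.04 (adjusted p = 0.0078) with sg2-THAP1. The DDHD2 call with sg2-THAP1 was lost without sg2-THAP1 replicate 1 (-0.08) or with median centring (-0.05). MSRA, which repairs oxidized methionine, had 0.05 ± 0.15 (adjusted p = 0.81) with sg1-THAP1 and 0.34 ± 0.15 (adjusted p = 0.047) with sg2-THAP1. The MSRA call with sg2-THAP1 was lost without any of 5 libraries (0.26 to 0.35).

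The largest changes came partly from genes of low level outside these lists. ANK1, an adaptor of the membrane skeleton 0.94 Mb from THAP1, stood at 0.76, 0.91 and 0.48 log2 RPM with sg1-THAP1 and 1.45, 1.25 and 1.42 with sg2-THAP1, against 1.75 to 2.39 in sgControl (median 1.96) and 1.87, 1.98 and 2.19 in untransduced cells. It changed by -1.26 ± 0.14 (adjusted p = 1.6e-10) with sg1-THAP1 and -0.61 ± 0.14 (adjusted p = 0.00025) with sg2-THAP1, with all sgTHAP1 libraries below the rest. DOCK5, an activator of Rac, stood at 3.57, 3.50 and 3.43 log2 RPM with sg1-THAP1 and 3.14, 3.13 and 3.17 with sg2-THAP1, against 4.02 to 4.26 in sgControl (median 4.17) and 4.27, 4.30 and 4.16 in untransduced cells. DOCK5 changed by -0.67 ± 0.06 (adjusted p = 3.2e-12) with sg1-THAP1 and -1.02 ± 0.06 (adjusted p = 7e-18) with sg2-THAP1, again without overlap. TEX15, a germ cell factor in mouse, had no overlap either and changed by -0.77 ± 0.06 (adjusted p = 1.9e-14) with sg1-THAP1 and -1.18 ± 0.06 (adjusted p = 2.1e-20) with sg2-THAP1. MYOM2, a protein of the muscle sarcomere, had 29 to 275 reads a library and fell to 44.2% of the sgControl level with sg1-THAP1 (adjusted p = 3.3e-08) and to 49.6% with sg2-THAP1 (adjusted p = 8.9e-07). ZNF596, a zinc-finger gene at the outer end with 19 to 99 reads, fell to 44.7% with sg1-THAP1 (adjusted p = 3.9e-05) and to 47.8% with sg2-THAP1 (adjusted p = 0.00015). FAM167A fell by 1.27 with sg1-THAP1 (adjusted p = 1.2e-05) and had -0.35 ± 0.24 (adjusted p = 0.21) with sg2-THAP1. TDRP fell by 0.90 with sg1-THAP1 (adjusted p = 0.0011) and had -0.56 ± 0.23 (adjusted p = 0.04) with sg2-THAP1, a call lost without any of 6 libraries (-0.56 to -0.34). RP11-582J16.5, inside CCAR2 on the other strand, fell by 1.31 with sg1-THAP1 (adjusted p = 4.4e-06) and had 0.05 ± 0.23 (adjusted p = 0.87) with sg2-THAP1. CCAR2, an inhibitor of the SIRT1 deacetylase, changed by -0.15 ± 0.03 (adjusted p = 6.1e-05) with sg1-THAP1 and -0.19 ± 0.03 (adjusted p = 6.9e-07) with sg2-THAP1, while against untransduced cells it had 0.40 with sg1-THAP1 and 0.35 with sg2-THAP1, and after median centring it had 0.02 with sg1-THAP1. AF131215.9 had 0.64 ± 0.19 (adjusted p = 0.0028) with sg1-THAP1 and 0.37 ± 0.19 (adjusted p = 0.083) with sg2-THAP1, and without sg2-THAP1 replicate 1 the change with sg2-THAP1 was 0.60 (adjusted p = 0.013). With sg2-Control alone as reference its call with sg1-THAP1 was lost (0.44, adjusted p = 0.08).

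**Figure D4:**
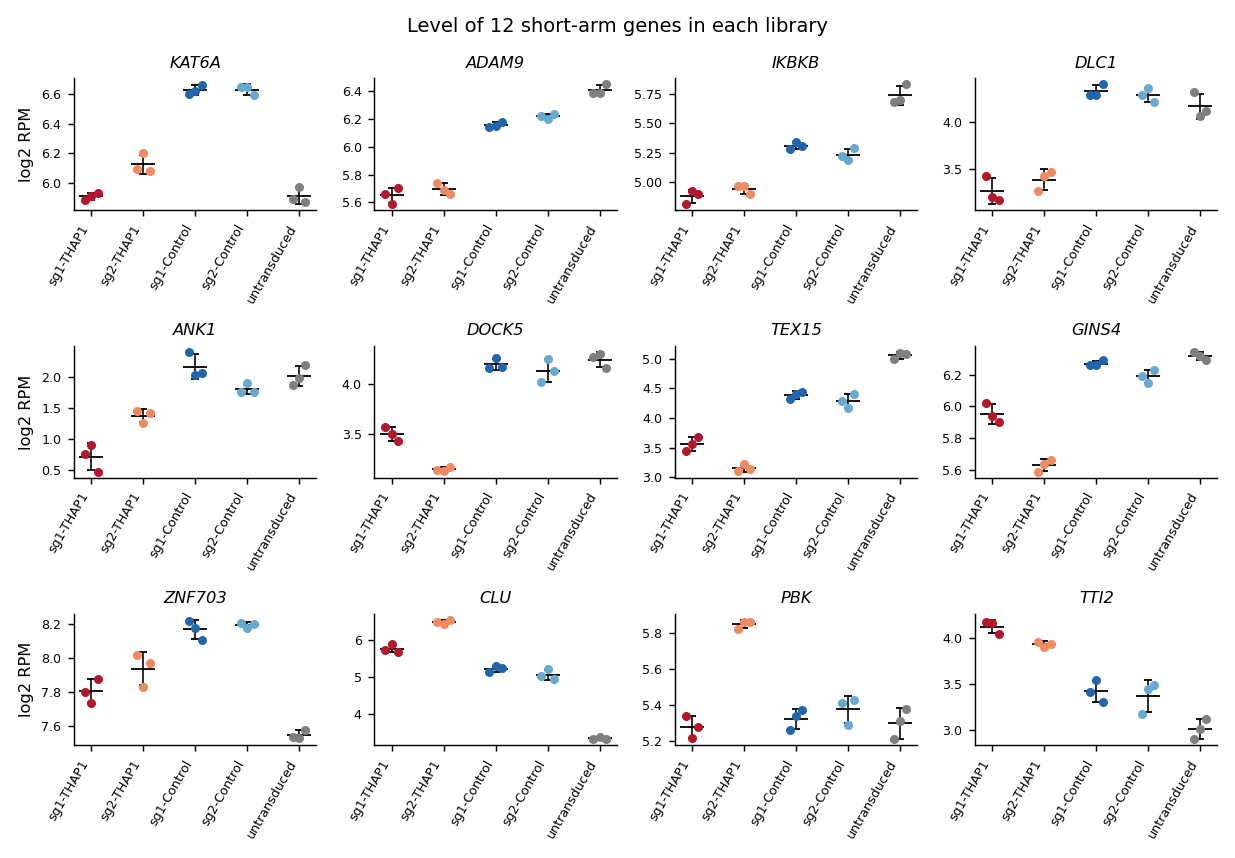
log2 RPM (y axis) of 12 short-arm genes in each library of the 5 groups (x axis). Points are libraries, bars group means and error bars SD (n = 3). ADAM9, IKBKB, DLC1, ANK1, DOCK5, TEX15 and GINS4 have all 6 sgTHAP1 libraries below the other 9, CLU and TTI2 have them above, and KAT6A and ZNF703 are lowest or nearly lowest in untransduced cells.

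The THAP1 guides differed from each other in many members, by a test of the difference. For sg1-THAP1 against sg2-THAP1, 45 members were lower (33.6%, beside 28.3% of all genes tested) and 11 higher (8.21%, beside 11.7%). The shares were near those of all genes, whose median in this comparison was itself -0.077. The largest named differences were RP11-582J16.5 at -1.36 ± 0.27 (adjusted p = 5.5e-05), FAM167A at -0.92 ± 0.27 (adjusted p = 0.0063) and CLU at -0.72 ± 0.06 (adjusted p = 8.4e-14). With every library centred on its median gene 24 were lower (beside 15.9%) and 27 higher (beside 22.3%), and with quantile normalization 27 lower (beside 17.6%) and 19 higher (beside 18.0%).

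Between sgControl and untransduced cells the short-arm genes shifted no more than the other chromosomes before adjustment for gene properties (0.007, against 0.148 after it), while many single genes moved. Cas9 and a possible difference in the starting cells cannot be told apart here. For sgControl against untransduced cells 54 members were lower (40.3%, beside 44.1%) and 48 higher (35.8%, beside 31.2%), after centring 37 lower (beside 33.8%) and 60 higher (beside 40.8%), and with quantile normalization 38 lower (beside 34.8%) and 59 higher (beside 36.5%). Here the log2 fold change was larger for members of higher mean level (Spearman's rank correlation 0.43 over 134 genes, a description). Between sg1-Control and sg2-Control limma called 0 members lower (beside 1.82%) and 0 higher (beside 2.06%). At an unadjusted p under 0.05 these were 3 lower and 10 higher, and voom on recovered reads called 0 lower and 1 higher.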

How the data were processed

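RNA-seq of 15 HEK-293T libraries was analysed from the deposited table of genes. Per the study's methods, the authors trimmed adaptors with Cutadapt, mapped the reads of strand-specific polyA libraries with HISAT2 (GRCh38) and quantified them in SeqMonk. The sources used here give neither the annotation release nor the use of strand in counting. The deposited values are log2 RPM, scaled by the authors to each library's total. Steps between low values gave back whole reads for 100% of low values, within 0.01 of a read. The depth of 30400149 to 56638461 reads sets the precision of low genes.

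Of the listed genes, 16787 reached -2 in 3 or more libraries. These were tested by limma 3.58.1 (R 4.3.3) on the log2 values, with 1 coefficient per group, an intensity trend and Benjamini-Hochberg adjustment over all of them. The test was checked on simulated data. Fold changes are on the deposited log2 scale, where 0 reads are listed at 0.9 of a read. Medians of regions, GC content and length (GENCODE 44, same build) were handled with pandas 2.3.3 and numpy 2.4.6, and the spline adjustment with patsy 1.0.2.

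The members, role lists and tests were chosen with earlier results of these data known. Named genes were the 6 largest falls and rises among called members with each THAP1 guide, the 6 members nearest to THAP1, the 4 with the highest mean, in every role list up to 2 of smallest adjusted p, and the genes next to the threshold. Of the members, 42 overlap another listed gene, 27 of them on the other strand.

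Alternatives were no filter and a stricter filter, quantile normalization, median centring, a pseudocount of 0.5 RPM, voom on recovered reads, a replicate block, each control guide or untransduced cells as reference, 3 coefficients, a mean of at least 2, the genes left out by name, 10 blocks, and each library left out in turn. The adjustment for GC content, length and level, alone and with untransduced cells as reference, and the removal of overlapping members were added after seeing the data. Between replicates of a group the chi-square per gene was 2.38 to 4.78, above sampling noise. Columns that describe genes only were not tested, and a region beyond the other control cut is not reported here.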

Additional observations from a re-analysis of the deposited data

Results flagged for a closer look

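Of the 39 members named in the text, 22 differed between the 2 THAP1 guides by limma's test of the difference itself, with Benjamini-Hochberg adjustment over all genes tested, of which 28.3% were lower and 11.7% higher in that comparison. Most of the 39 were picked for large changes or small adjusted p with either guide, which favours such differences. The values that follow are log2 differences, sg1-THAP1 minus sg2-THAP1. The median of all genes tested was itself -0.077 in this comparison, and 0.023 with every library centred on its median gene. The smaller differences in the lower direction are therefore partly this offset. The largest were RP11-582J16.5 (-1.36, adjusted p = 5.5e-05), FAM167A (-0.92, adjusted p = 0.0063), CLU (-0.72, adjusted p = 8.4e-14), ANK1 (-0.65, adjusted p = 0.001), PBK (-0.57, adjusted p = 1.4e-12) and PLAT (-0.51, adjusted p = 0.011), all lower with sg1-THAP1. Smaller differences in the same direction were TUSC3 (-0.47, adjusted p = 5.9e-11), ATP6V1B2 (-0.41, adjusted p = 8.2e-11), DDHD2 (-0.34, adjusted p = 2.8e-08), SLC39A14 (-0.29, adjusted p = 5.8e-09) and RAB11FIP1 (-0.28, adjusted p = 6.3e-06). The smallest in that direction were RHOBTB2 (-0.24, adjusted p = 0.028), KAT6A (-0.22, adjusted p = 1.3e-05), TNKS (-0.20, adjusted p = 0.00096), PPP2R2A (-0.18, adjusted p = 9.7e-05), SLC20A2 (-0.17, adjusted p = 0.034), ZNF703 (-0.14, adjusted p = 0.0015) and PCM1 (-0.11, adjusted p = 0.011). Higher with sg1-THAP1 were TEX15 (0.41, adjusted p = 8.8e-06), DOCK5 (0.36, adjusted p = 0.00011), GINS4 (0.33, adjusted p = 4.4e-09) and VDAC3 (0.17, adjusted p = 1.5e-05). CLU rose with both guides, and TEX15, DOCK5 and GINS4 fell with both, more so with sg2-THAP1.

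In 5 of 80 groups of 6 libraries examined, 1 library lay far from the others on the log2 RPM scale. Chance alone gives such a flag in about 1 of 20 groups. ZNF596 stood at 1.32 in sg2-Control replicate 3, where the other 5 libraries of sgControl lay at 0.64 to 0.85. SMIM19 stood at 3.68 in sg2-Control replicate 2, where the other 5 libraries of sgControl lay at 3.30 to 3.44. RHOBTB2 stood at 3.29 in sg2-Control replicate 3, where the other 5 libraries of sgControl lay at 3.48 to 3.57. PCM1 stood at 6.73 in sg1-Control replicate 1, where the other 5 libraries of sgControl lay at 6.82 to 6.85. XPO7 stood at 6.43 in sg1-THAP1 replicate 1, where the other 5 libraries of sgTHAP1 lay at 6.45 to 6.46.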

How the results depend on the processing

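With quantile normalization and with median centring the median of the members was -0.126 and -0.087 with sg1-THAP1 and -0.122 and -0.105 with sg2-THAP1, and the quantile shift with sg1-THAP1 was -0.144. Members called higher were 14 (quantile) and 22 (centring) with sg1-THAP1 and 19 (centring) with sg2-THAP1. For sg1-THAP1 against sg2-THAP1 the median turned to 0.018 (quantile) and 0.017 (centring), the shift was 0.014 (quantile), and calls were 27 lower and 19 higher (quantile) or 24 and 27 (centring). For sgControl against untransduced cells the median turned to 0.103 (quantile) and 0.108 (centring), and the quantile shift was 0.092. With untransduced cells as reference the medians were -0.353 and -0.252, the shifts -0.196 and -0.184 and the members called higher 28 and 38, for sg1-THAP1 and sg2-THAP1, while the centromere side had -0.277 with sg1-THAP1 and 8q -0.005 with sg2-THAP1. With sg1-Control alone as reference sg2-THAP1 had a median of -0.183 and a shift of -0.163. With the genes left out by name, sg1-THAP1 had a median of -0.271 and a shift of -0.179, and 1 member was higher between the control guides, as in voom (1). At a mean of at least 2 the median and shift were -0.065 and 0.008 between the THAP1 guides, and 0.043 and 0.098 with 35 called lower for sgControl against untransduced cells. The weakest of 10 blocks had 0.000 and -0.016. Chosen after seeing the data, the adjustment for GC content, length and level gave shifts of -0.145, -0.166, 0.017 (between the THAP1 guides) and 0.148 (sgControl against untransduced cells), and -0.072 and -0.106 against untransduced cells. Without members that overlap a listed gene, also chosen after seeing the data, the median and shift were -0.309 and -0.217 with sg1-THAP1, and -0.101 and -0.029 between the THAP1 guides, while 5 were called higher with sg1-THAP1, 6 higher with sg2-THAP1 and 35 lower for sgControl against untransduced cells.

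Leaving out 1 library at a time gave shifts of -0.170 to -0.153 with sg1-THAP1, -0.163 to -0.146 with sg2-THAP1, -0.016 to 0.010 between the THAP1 guides, -0.008 to 0.021 for sgControl against untransduced cells and -0.007 to 0.013 between the control guides. The medians ran from -0.261 to -0.244, -0.182 to -0.165, -0.086 to -0.062, -0.066 to -0.034 and -0.007 to 0.015 in the same order, and members called higher between the control guides from 0 to 1. Members called lower ran from 81 to 84 with sg1-THAP1 and from 62 to 77 with sg2-THAP1.

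Replicate numbers did not pair the libraries: over 30 pairs with the same number the correlation of deviations was -0.1 to 0.062, and 4 libraries correlated best with their own number. With the replicate block 74 members were lower with sg2-THAP1 and 44 between the THAP1 guides.

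Of 1950 values of named genes under an alternative, 1865 kept direction and call, 12 gained a call, 48 lost it and 25 reversed. Against untransduced cells the reversed were, with sg1-THAP1 and sg2-THAP1 in turn, AF131215.9 (-0.34, -0.61), EIF4EBP1 (-1.02, -1.04), SMIM19 (-0.57, -0.56), ZNF703 (0.25, 0.39), CCAR2 (0.40, 0.35), PCM1 (0.07, 0.18), MAK16 (0.09, 0.00) and PPP2R2A (0.22, 0.40), with sg1-THAP1 TUSC3 (0.13), and with sg2-THAP1 VDAC3 (0.34), KAT6A (0.21), RAB11FIP1 (0.22) and ATP6V1B2 (0.23). With median centring PBK (0.10), TUSC3 (0.11), POLB (0.16) and CCAR2 (0.02) reversed with sg1-THAP1. Against untransduced cells calls were lost for KAT6A (-0.00) and RAB11FIP1 (-0.06) with sg1-THAP1, and for SLC20A2 (-0.11) and SLC39A14 (-0.07) with sg2-THAP1. Calls lost with median centring were PCM1 (-0.07) with sg1-THAP1. With sg2-THAP1 they were PCM1 (-0.06), ATP6V1B2 (-0.05), DDHD2 (-0.05), VDAC3 (-0.01), POLB (-0.06) and TDRP (-0.5). Calls gained with it were RHOBTB2 (0.2) with sg1-THAP1 and AF131215.9 (0.44) with sg2-THAP1. With sg2-Control alone as reference, calls lost with sg1-THAP1 were AF131215.9 (0.44) and SMIM19 (0.13). With sg2-THAP1 that reference lost SMIM19 (0.14), MSRA (0.28), VDAC3 (-0.07), POLB (-0.1), DDHD2 (-0.09) and TDRP (-0.5). The cause was not tested. Depth limits the members near the threshold, some of which had under 20 reads in a library.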
